A study of Mus musculus with 8 samples.

Results

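Umod encodes uromodulin, and it is the gene that carries the mutation in both mouse lines of this study. On the spotted cDNA arrays it was represented by 1 element (block 21, column 16, row 7) out of 20794 spot positions that carry 9030 different gene symbols. The element was taken by its platform gene symbol alone, without regard to its values. Kidney RNA of 4 heterozygous Umod C93F males and of 4 homozygous Umod A227T males was hybridised against a pool of wild-type RNA of the same line. Each mouse was measured on a pair of arrays with the dyes swapped, which makes 16 arrays. Both lines came from a chemical (ENU) mutagenesis screen on an inbred C3H background, and both carry a missense change of the endogenous gene in every cell of the body. The labels give an age of 39 for C93F and of 19 for A227T mice and pools, without a unit. The study's methods state the ages in weeks, with a slightly lower value than the label for either line. The wild-type pool of a line counts as 1 control sample, so the variation among wild-type animals does not enter a ratio against it. Line, zygosity, age, pool and hybridisation series coincide and cannot be told apart.

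Uromodulin, also called Tamm-Horsfall protein, is made by epithelial cells of the thick ascending limb of the loop of Henle and, less strongly, of the early distal convoluted tubule. It folds in the endoplasmic reticulum, receives a glycosylphosphatidylinositol (GPI) anchor, is carried to the apical membrane and is cut there by the protease hepsin. The released protein then polymerises in the urine through its zona pellucida (ZP) domain. In humans, missense mutations of UMOD cause a dominant tubulointerstitial kidney disease in which the mutant protein is held back in the endoplasmic reticulum. A spotted cDNA probe binds transcripts of the mutant and of the wild-type allele, so the spot measures the sum of both and cannot check the genotype labels. Which stretch of the transcript the clone covers is not given in the sources used here.

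The Umod spot was among the brightest on every array. In C93F its median foreground in the channel of the mutant RNA was 533 at the lowest, 811.5 at the median and 1291 at the highest of 8 arrays, against 614, 1063.5 and 1958 in the channel of the wild-type pool. In A227T the channel of the mutant read 4991, 7624 and 16213, and that of the pool 4442, 6452.5 and 13842. The local background lay between 66 and 139 in all of these readings, so the spot stood 4.42 to 21.5 times over background in C93F and 49.5 to 153 times in A227T. Both channels were at least 2 times the background on all 16 arrays, no pixel of the spot was saturated, and no array had it marked as not found. Ordered by mean brightness of both channels, the spot held rank 97 to 452.5 among 20794 in C93F and rank 31 to 68 in A227T. Brightness ranks a spot, not a transcript, because probes differ in length and in how they bind. The scans of the C93F series were dimmer throughout. The share of spots that passed the background check on an array was 15.3% to 42.3% in C93F and 56.7% to 74.0% in A227T, which left 3340 and 9220 elements for testing.

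**Figure D1:**
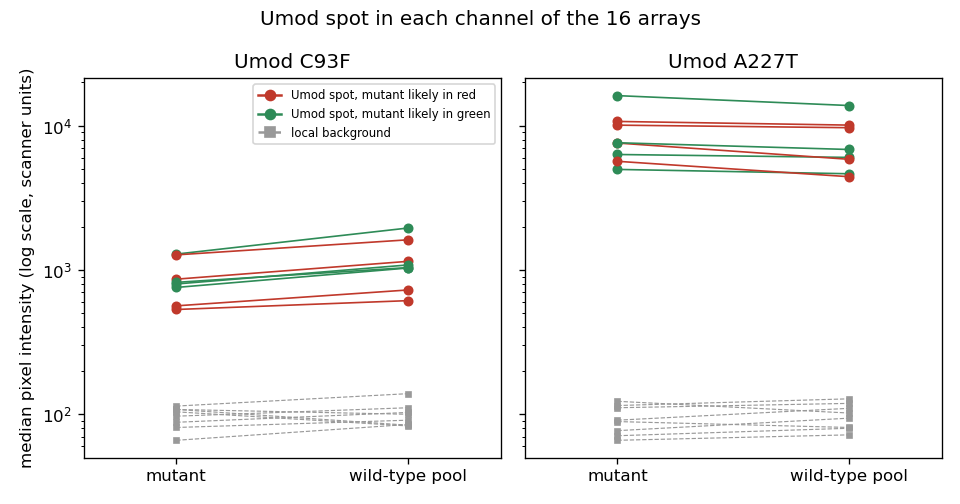
Median pixel intensity of the Umod spot (log axis, scanner units) in the channel of the mutant and in that of the wild-type pool; each line is 1 array, coloured by the dye that likely carried the mutant, and grey squares are the local background. In the 8 C93F arrays the mutant channel lay below the pool channel, and in the 8 A227T arrays it lay above, before any normalization.

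The sign of every ratio below rests on an assignment of dyes that is likely but that the scan names alone do not settle. In the scans whose names put the control between the dyes as Cy3, CTL, Cy5, the red channel was taken as the mutant. This followed from the legends of the study's gene lists and from the signs of the deposited ratios: all 99 clones listed for A227T and all 47 for C93F had the listed sign in the scans. With this assignment Scd1 was at 1.09 and Wfdc15b at -0.56 in A227T. The study's RT-qPCR on other mice, homozygous in both lines, found Scd1 higher and Wfdc15b lower than in wild-type mice. Read literally, the scan names could be taken the other way. The Umod ratios would then be 0.32 in C93F and 0.07 in A227T instead of -0.32 and -0.07, with the same tests.

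In Umod C93F kidneys the Umod signal was lower than in the wild-type pool after intensity-dependent (loess) normalization, with all 4 mice below the pool. The log2 ratios of mutant over pool were -0.32, -0.46, -0.15 and -0.36 in mice 1 to 4, each the mean of 2 arrays. Their mean was -0.32 ± 0.13 (SD, n = 4), a change of -20.0% with a 95% interval of -26.4% to -13.2%. The difference was larger than the spread between the mice (adjusted p = 0.00357, limma, over 3340 elements). It stayed under the 1.4-fold threshold, so Umod was not among the 35 called elements of this line (1.05% of those tested). A call required a Benjamini-Hochberg adjusted p below 0.10 and, in addition, a fold above 1.4. By the adjusted p alone 24% of the tested elements passed, 14.7% in the lower direction, and 19.4% had all 4 mice below 0. Umod ranked 111 from the lowest, with 3.29% of the tested elements below it, and the median of all of them was 0.02.

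The 2 dye orientations differed in size. With the mutant likely in red, the normalized log2 ratio was -0.52, -0.72, -0.24 and -0.35 in C93F mice 1 to 4 (mean -0.46). With the mutant likely in green it was -0.13, -0.19, -0.07 and -0.37 (mean -0.19). All 8 arrays were thus below 0, and the red array was the lower one in 3 of the 4 mice. Each orientation on its own gave an adjusted p under 0.10 (0.00164 for red and 0.0395 for green, a comparison added after the data were seen). Before normalization, with the background subtracted, the 8 arrays lay between -0.63 and -0.18.

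In Umod A227T kidneys no change of Umod beyond the spread between mice was measured. The log2 ratios were -0.14, 0.07, -0.10 and -0.10 in mice 1 to 4. Their mean of -0.07 ± 0.09 (SD, n = 4) did not differ from 0 (adjusted p = 0.657, limma, over 9220 elements). The 95% interval ran from -0.23 to 0.09 on the log2 scale, that is from -14.9% to 6.7%. The C93F loess mean lay outside this interval, while the C93F means from print-tip loess and from the deposited ratios, given further on, lay inside the A227T intervals of the same settings. Here 167 elements were called (1.81% of those tested), 10.8% passed the adjusted p alone, and 27.8% of the tested elements had a lower ratio than Umod. The arrays with the mutant likely in red gave -0.33, 0.03, -0.17 and -0.20 (mean -0.17), and those with the mutant likely in green 0.05, 0.10, -0.03 and -0.01 (mean 0.03). The red array was the lower one in all 4 mice, and 5 of 8 arrays were below 0. Without normalization all 8 arrays were above 0, between 0.06 and 0.38.

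**Figure D2:**
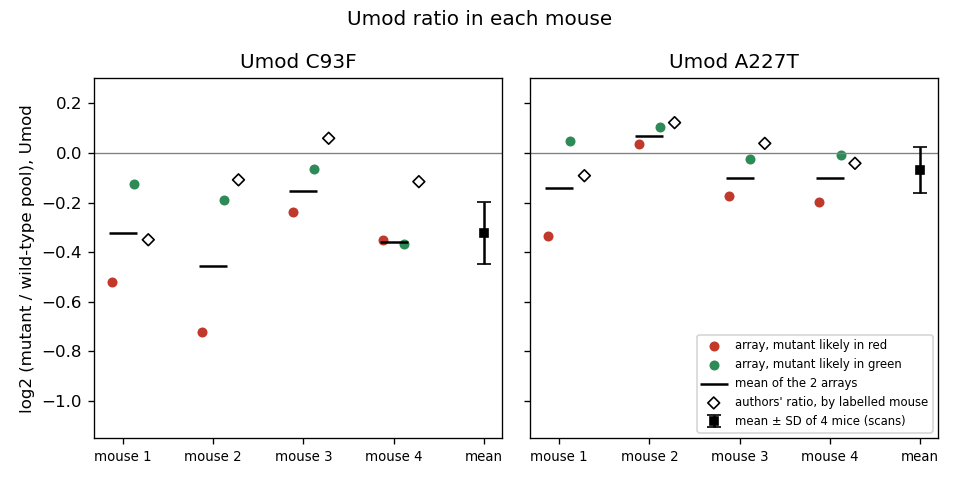
Log2 ratio of mutant over wild-type pool for the Umod spot in each mouse; dots are single arrays after loess, horizontal bars the mean of the 2 arrays, open diamonds the deposited ratio by labelled mouse, and the square with bars the mean ± SD of 4 mice. The 4 C93F mice lay at -0.46 to -0.15 and the 4 A227T mice at -0.14 to 0.07.

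**Figure D3:**
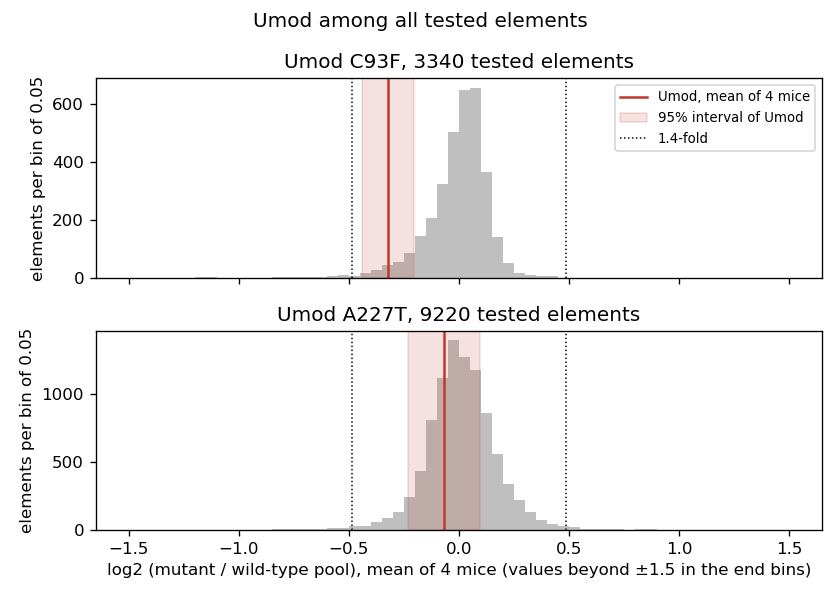
Number of tested elements by mean log2 ratio of mutant over pool (bins of 0.05) in C93F and in A227T, with the mean of Umod as a line, its 95% interval as a band and the 1.4-fold limits dotted. Umod lay in the lower tail of the C93F elements, inside the 1.4-fold limits, and below the median of the A227T elements, with 27.8% of them lower.

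The size of the C93F difference depended on the normalization. With a separate loess curve for each of the 48 print blocks (print-tip loess), the log2 ratios in C93F mice 1 to 4 were -0.18, 0.01, -0.13 and -0.13. Their mean was -0.11 ± 0.08 (SD, n = 4, 95% interval -0.21 to -0.01), and the adjusted p was 0.129 (limma), above the threshold. With median centring the C93F mean was -0.42 ± 0.15 (adjusted p = 0.00117, limma). In the same 2 settings the A227T mean was -0.05 ± 0.06 (adjusted p = 0.723, limma) and 0.07 ± 0.11 (adjusted p = 0.599, limma), so its sign turned with median centring.

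The block that holds the Umod spot has 440 spots, and 36 of its elements were tested in C93F. Their median log2 ratio in C93F was -0.06, against 0.02 over all tested elements, and only 2 of the 48 blocks had a lower median. In A227T the median of the block was 0.05 over 164 elements. Umod was 0.26 below the median of its block in C93F, where 3 of the block's tested elements had a lower ratio, and 0.11 below it in A227T. Within its block the spot ranked second to ninth in brightness on the C93F arrays.

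The deposited ratios gave a smaller C93F difference too. They are the study's own log2 values, 1 per mouse, after its filters. For Umod they read -0.35, -0.11, 0.06 and -0.12 in C93F mice 1 to 4, with a mean of -0.13 ± 0.17 (SD, n = 4, adjusted p = 0.609, limma over the 14747 elements with 4 values). In A227T they read -0.09, 0.12, 0.04 and -0.04, with a mean of 0.01 ± 0.09 (adjusted p = 0.962, limma over 3338 elements). One C93F mouse and 2 A227T mice were above 0. The mouse numbers of the deposited C93F columns and of the scans did not match for mice 1 and 2. The scans of mouse 1 correlated with the column of mouse 2 (r = 0.73 over spot positions) and not with that of mouse 1 (r = 0.11), and the scans of mouse 2 with the column of mouse 1 (r = 0.67). The mean over the 4 mice does not depend on this.

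**Figure D4:**
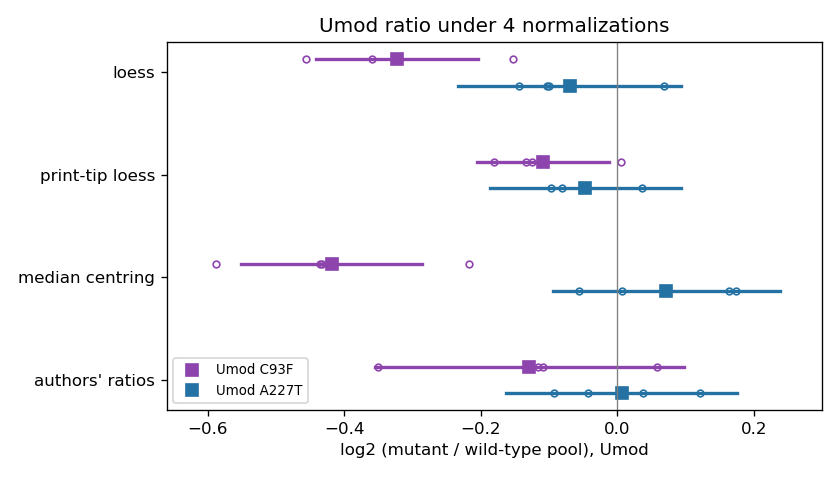
Log2 ratio of mutant over pool for Umod under loess, print-tip loess, median centring and in the deposited ratios; squares are means of 4 mice, thick lines 95% intervals from limma and open circles single mice. The C93F mean ran from -0.42 to -0.11 over these settings and the A227T mean from -0.07 to 0.07.

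Set against each other, the C93F kidneys had the lower Umod ratio. The mean was -0.32 in C93F and -0.07 in A227T, a difference of -0.25 ± 0.09 (SE, limma; 95% interval -0.44 to -0.06). Among 2169 elements tested in both lines the adjusted p was 0.0525 (limma), under the threshold of 0.10. The highest C93F mouse (-0.15) lay just below the lowest A227T mouse (-0.14), so the lines did not overlap. The exact two-sided permutation test gave p = 0.0286, the smallest that 4 against 4 mice can give. Of the elements tested in both lines 28.4% passed the adjusted p, 14.8% had all C93F mice below all A227T mice and 25.5% did not overlap in one direction or the other, so a gap of this kind was common on these arrays. With print-tip loess the lines overlapped and the difference was -0.06 (adjusted p = 0.583, limma; exact permutation p = 0.286). In the deposited ratios it was -0.14 (exact permutation p = 0.2).

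Genes of the segment that makes uromodulin were mostly too dim to be tested. Of 18 genes of the thick ascending limb and early distal convoluted tubule, 11 were on the array, 1 was tested in C93F and 5 in A227T, and none was called in either line. Slc12a1 (the cotransporter NKCC2, target of loop diuretics), Egf and Bsnd (the chloride channel subunit barttin) did not pass the background check in either line. Cldn10, encoding a claudin of tight junctions, had log2 ratios of -0.38, 0.05, -0.30 and -0.28 in C93F mice (mean -0.23 ± 0.19, SD, adjusted p = 0.043, limma). In C93F 14.7% of all tested elements passed the adjusted p in the lower direction. In A227T mice Cldn10 read -0.17, -0.17, 0.01 and -0.07 (mean -0.10 ± 0.09, adjusted p = 0.5, limma). These ratios are those of its brighter element, and a dimmer one was at -0.06 in C93F and -0.09 in A227T. Cldn19, encoding the claudin that pairs with claudin 16 for magnesium and calcium passage, read 0.31, 0.38, 0.40 and 0.20 in A227T mice (mean 0.32 ± 0.09, adjusted p = 0.0212, limma), below the 1.4-fold threshold. In that line 6.24% of all tested elements passed the adjusted p in the higher direction. Casr, the calcium-sensing receptor, was at 0.19 ± 0.12, and Kcnj16, a potassium channel subunit of the basolateral membrane, at 0.12 ± 0.08 in A227T (SD, n = 4). In whole kidney, fewer cells of a type and less RNA per cell cannot be told apart.

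In C93F the genes of the proximal tubule, a different segment, were lower beside Umod. All 6 tested ones passed the adjusted p in the lower direction, as did 14.7% of all tested elements, and 3 were called lower, as were 1.02%. Slc34a1, the phosphate cotransporter of the brush border, was at -0.64 ± 0.05, the organic anion transporter gene Slc22a6 at -0.53 ± 0.06 and the dicarboxylate transporter gene Slc13a3 at -0.52 ± 0.07 (SD, n = 4 each). The mean over the 6 genes lay between -0.42 and -0.34 in the 4 C93F mice, and between -0.16 and 0.03 in the 4 A227T mice, where 2 genes passed the adjusted p in the lower direction, as did 4.52% of all tested elements, and none was called. With print-tip loess the 6 genes still passed the adjusted p in C93F and 1 was called. In A227T other markers moved. The adipocyte genes Fabp4, Ucp1 and Car3 were called higher, all 3 that were tested of 6 on the array (0.803% of all tested elements were called higher), and their mean lay between 0.42 and 0.75 in the 4 mice. With print-tip loess 1 of the 3 was called, although all 3 passed the adjusted p. The remaining adipocyte genes on the array were too dim for the test. Adipoq was at 0.19 ± 0.13, Plin1 at -0.08 ± 0.22 and Cidec at -0.005 ± 0.39 in A227T after loess. The collecting duct genes Aqp2, encoding a water channel (0.48 ± 0.23), and Hsd11b2, encoding a steroid dehydrogenase (0.41 ± 0.07), passed the adjusted p without reaching the fold. They were the only 2 tested of 5 on the array, and 6.24% of all tested elements passed in the higher direction. In C93F Aqp2 was at 0.03 ± 0.14. Hba-a1, an alpha-globin gene, was called lower (-0.80 ± 0.26), as 1 of 2 tested genes of the erythroid list. The other, Alas2, was at -0.10 ± 0.21 (adjusted p = 0.545, limma). Of all tested elements of this line 1.81% were called, and 55.7% of these calls were lower. In C93F the same Hba-a1 element read -0.41, -0.28, -0.46 and -0.35 (mean -0.38 ± 0.08, SD), but it did not pass the background check and was not tested. The study's own array comparison listed Hba-a1 as lower in both lines. Its RT-qPCR on other mice found similar Hba-a1 levels whatever the genotype. The part of these cell types in the Umod ratios was not tested.

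Genes that handle the uromodulin protein showed no called change in either line. Of the genes listed for its cleavage, 3 were on the array. Hpn, encoding hepsin, was at -0.01 ± 0.16 in A227T (SD, n = 4, adjusted p = 0.975, limma). In C93F Hpn read -0.12, -0.23, -0.16 and -0.26 (mean -0.19 ± 0.06), but it did not pass the background check and was not tested. Prss8, encoding the protease prostasin, was at 0.10 ± 0.15 in C93F and -0.10 ± 0.24 in A227T, and Spint2, encoding an inhibitor of such proteases, at 0.18 ± 0.15 in A227T. The GPI transamidase genes Pigk, Pigs and Pigu, whose products add the anchor, lay between 0.07 and 0.12 in C93F and between -0.07 and 0.06 in A227T.

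Of 21 genes of protein folding and the unfolded protein response in the endoplasmic reticulum, 6 were tested in C93F and 13 in A227T, and none was called. Hspa5, encoding the chaperone BiP, was at -0.03 ± 0.15 in A227T and too dim for the test in C93F. Hsp90b1, encoding the chaperone GRP94, was at -0.15 ± 0.09 in C93F and -0.09 ± 0.30 in A227T. Canx, encoding calnexin, was at -0.20 ± 0.05 in C93F (adjusted p = 0.0123, limma) and at 0.12 ± 0.17 in A227T. Calr, encoding calreticulin, was at -0.04 ± 0.06 in C93F and -0.15 ± 0.08 in A227T. By the adjusted p alone 3 genes were lower and 1 was higher in C93F, where 14.7% of all tested elements passed in the lower and 9.28% in the higher direction. None passed in A227T. The lowest in C93F was Herpud1 at -0.33 ± 0.11 (adjusted p = 0.00213, limma), and it was at 0.07 ± 0.22 in A227T. The higher gene in C93F was Sel1l at 0.16 ± 0.08. With print-tip loess 3 genes passed in the lower and 0 in the higher direction in C93F. The list median was -0.10 in C93F and -0.01 in A227T, against 0.02 and 0.01 over all tested elements.

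Relatives and neighbours of Umod gave few usable spots. Of 13 genes of proteins with a ZP domain 6 were on the array, and none was called. Gp2, encoding glycoprotein 2 of the pancreas, is both the nearest relative of Umod and its neighbour on chromosome 7, and it was too dim for the test in both lines (-0.08 ± 0.18 in C93F and -0.19 ± 0.07 in A227T). Cuzd1, another gene of this family, was too dim as well. Dmbt1, encoding a mucosal scavenger protein, was at 0.11 ± 0.16 in C93F and 0.16 ± 0.15 in A227T, and Tgfbr3, encoding betaglycan, at -0.02 ± 0.23 in A227T. Eng, encoding the endothelial co-receptor endoglin, read -0.49, -0.34, -0.33 and -0.10 in A227T mice (mean -0.31 ± 0.16, adjusted p = 0.0362, limma), under the fold threshold. It was 1 of 3 tested genes of this family in A227T, where 4.52% of all tested elements passed the adjusted p in the lower direction. In C93F Eng was at -0.03 ± 0.07 and was not tested. Of 10 listed genes of the Umod region on chromosome 7, a list that is not the full set of its nearest genes, 7 were on the array. Acsm2, an acyl-CoA synthetase gene, was at -0.09 ± 0.03 in C93F and -0.22 ± 0.15 in A227T, and Acsm1, of the same family, at -0.08 ± 0.29 in A227T. Neither passed the test, and Thumpd1 was too dim in both lines.

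**Figure D5:**
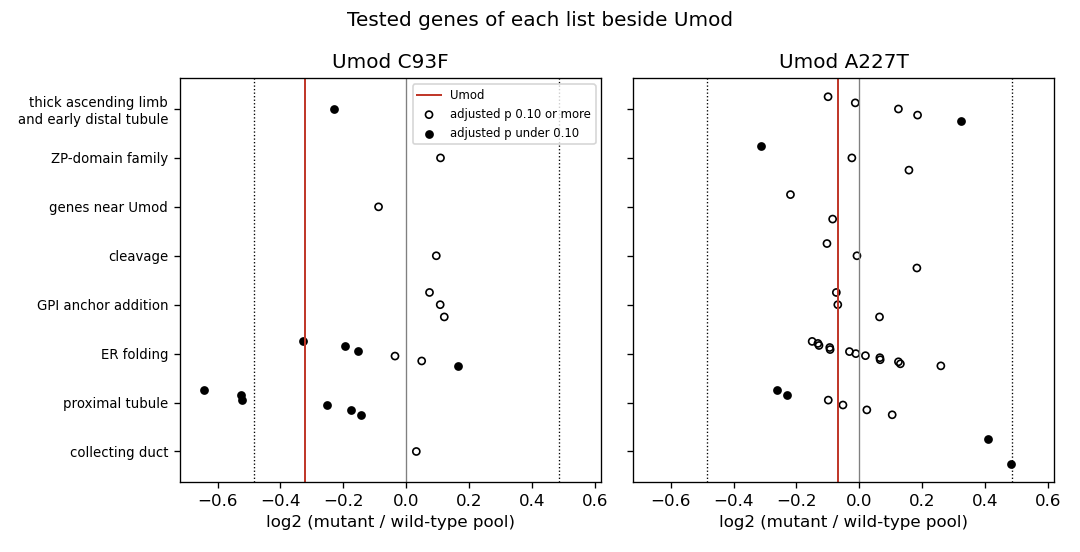
Mean log2 ratio of mutant over pool (n = 4 mice) for the tested genes of each list in C93F and in A227T; filled circles have an adjusted p under 0.10, the solid line marks Umod and dotted lines the 1.4-fold limits. In C93F the 6 proximal tubule genes lay between -0.64 and -0.14, on both sides of Umod at -0.32.

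Among 1465 other elements with a gene name tested in both lines, 6 had a correlation over 0.9 with Umod across the 8 mice. The median correlation was 0.09. The points share the array series of each line, its pool and the difference between the lines, so the values are a description. Slc25a16, a mitochondrial carrier gene, came first with r = 0.96 over the 8 mice, and r = 0.95 after the mean of each line was subtracted. It read -0.18, -0.37, -0.01 and -0.29 in C93F mice 1 to 4, and -0.04, 0.10, -0.10 and -0.05 in A227T mice. In both genes mouse 2 was the lowest of the C93F mice and the highest of the A227T mice. This order and the correlations are those after loess. With print-tip loess the highest Umod ratio was that of mouse 2 in C93F (0.01) and of mouse 4 in A227T (0.04). Ces1f, a carboxylesterase gene, followed with r = 0.92, Pigr, encoding the receptor that carries immunoglobulins across epithelia, with 0.92, Ass1, encoding argininosuccinate synthase, with 0.91, Sgsm3, a gene of a small G protein modulator, with 0.91, and Mrps15, encoding a protein of the mitochondrial ribosome, with 0.90. After subtraction of line means these 5 had r between 0.75 and 0.82. Elements of one gene differed. Ass1 had another element tested in both lines at -0.04 in C93F and -0.02 in A227T, and a further element called higher in A227T (0.51). The 2 elements of Cldn10, the one gene of the thick ascending limb list among them, had r = 0.04 (rank 776) and r = -0.14 (rank 929). After subtraction of line means they had r = -0.58, for the brighter element whose ratios in single mice are given above, and r = -0.04.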

How the data were processed

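The members and gene lists were chosen with earlier results of these data known. Per the file headers, the deposited scans give, for either channel, the intensity of a spot (median of its pixels) and of its surroundings, the percent of saturated pixels and a score that flags spots not found. The authors also deposited processed log2 ratios after their own background and dye-swap filters, with 17631 to 18029 values per C93F mouse and 4963 to 6976 per A227T mouse, so how strictly the C93F ratios were filtered is unclear. Here the scans were corrected by normexp (offset 50) and normalised by loess within arrays. Swapped arrays were turned to mutant over pool, spots of a clone and the 2 arrays of a mouse were averaged, and each line was tested against 0 with limma 3.58.1 in R 4.3.3. An element was tested when its foreground reached 2 times the background in at least 1 channel on both arrays of 3 or more mice. Calls needed an adjusted p under 0.10 (Benjamini-Hochberg) and a fold over 1.4. Named genes were Umod, up to 4 measured genes per list in written order, called list members and the 6 nearest patterns. Some other list genes were named after their values were seen. Of the 20794 spot positions, 12771 had a gene symbol and 8023 none. The scans of a line were joined by spot position and the lines by clone name. At 217 positions the C93F scans carried another clone name. The steps were tested on simulated data. Intervals rest on 4 mice per line.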

Additional observations from a re-analysis of the deposited data

Results flagged for a closer look

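The difference of Umod between the lines passed its test after loess. The log2 ratio was -0.32 in C93F and -0.07 in A227T, a difference of -0.25 (exact two-sided permutation p = 0.0286 over 4 and 4 mice, the smallest possible). Of the elements tested in both lines 25.5% did not overlap between the lines and 28.4% passed the adjusted p. The exact permutation p was 0.286 with print-tip loess and 0.2 in the deposited ratios. The gap of the most distant mouse over the range of its line was 0.564 in C93F and 0.793 in A227T, under Dixon's 95% critical value for 4 values, where this test has little power. The lines differ in zygosity, age, pool and array series as well as in the mutation, and these cannot be told apart.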

How the results depend on the processing

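The C93F ratio of Umod stayed below 0 in all 19 alternatives that kept the dye assignment (-0.46 to -0.11), and passed the adjusted p in 17 of them; with print-tip loess and with the authors' processed ratios it did not. It never reached 1.4-fold. The A227T ratio passed in none of 19, and its sign turned with median centring (0.072), the authors' processed ratios (0.0065) and the arrays with the mutant likely in green (0.029). The difference between the lines stayed below 0 in all 23 and passed in 14. It did not pass with print-tip loess (-0.062), no filter on dim spots (-0.25, adjusted p = 0.241), the authors' processed ratios (-0.14), or the arrays with the mutant likely in red (-0.29) or in green (-0.22), the last pair added after seeing the data. With the opposite dye assignment the values were 0.32 in C93F, 0.069 in A227T and 0.25 for the difference. The cause of these changes was not tested. Leaving out a mouse moved the difference from -0.31 to -0.21 and lost the adjusted p of 0.10 without C93F mouse 1 (adjusted p = 0.11), 2 (adjusted p = 0.164) or 4 (adjusted p = 0.122) or A227T mouse 2 (adjusted p = 0.104, limma). C93F stayed between -0.38 and -0.28 and A227T between -0.12 and -0.04.

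With the label number as a replicate block the difference was -0.25 (adjusted p = 0.0815, limma). Same-numbered mice of the lines did not deviate together (r between -0.06 and 0.00), so the number pairs nothing.

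Called elements in A227T numbered 167, and 292 with local background subtracted, 100 with the stricter filter, 585 and 503 on the arrays with the mutant likely in red and green. In C93F they numbered 35, and 23 without background correction, 75 with local background subtracted, 21 with the stricter filter, 14 in the authors' processed ratios, 183 and 129 on the red and green arrays. Median centring moved the share of lower calls in A227T to 29.4%, against 55.7% with loess. The C93F scans were dim, and fewer elements could be tested there.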
